A study of Mus musculus with 4 samples.

Results

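Cathepsins are the proteases of the lysosome, and 8 of them that myeloid cells use are described here: Ctsa, Ctsb, Ctsc, Ctsd, Ctsh, Ctsl, Ctss and Ctsz. They were taken by name from the gene tables of 4 mouse acute myeloid leukaemia lines of the BXH-2 strain, 8 of 21889 listed genes, and granule cathepsin G was left out of the set. The parents, B117P and B140P, are killed by low doses of the nucleoside drug cytarabine (Ara-C), with labelled IC50 values of about 150 and 110 ng/ml. B117H and B140H are highly resistant lines derived from them, with labelled IC50 values of about 160 and 60 µg/ml. A parent and its derivative form a lineage, B117 or B140. All 4 lines carry the same treatment label, exposure to rising Ara-C, and all were passaged without the drug. Whether a line is 1 clone is not stated in the labels. Total RNA of each line gave 1 library, so values have no replicate error and the spread between replicates is unknown.

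Cathepsins are made as inactive precursors, tagged with mannose 6-phosphate in the Golgi, carried to the lysosome by receptors and activated by proteolysis at acid pH, which the vacuolar proton pump maintains. Cystatins and some serpins inhibit the cysteine cathepsins that escape. The transcription factor TFEB and its relatives raise many lysosomal genes together through a promoter element built around the E-box CACGTG. Ctsd is an aspartic endopeptidase and Ctsa a serine carboxypeptidase. Ctsb, Ctsc, Ctsh, Ctsl, Ctss and Ctsz are cysteine proteases of the papain family.

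Promoter sequence is shown for the members with the E-box and for Ctsz, the member with the largest changes among those expressed in all 4 lines. RefSeq's table for GRCm38.p6, which is not the build of the expression files, held 6 of the 8 members and no entry for Ctsb and Ctsh. Each entry covers 250 bases before to 50 bases after a start site. CACGTG, which reads the same on both strands, was in 3 of the 6 genes, Ctsa, Ctsd and Ctsl, against 8.09% of 27025 genes in the table. The longer TCACGTGA, which contains it, was in Ctsa and Ctsd, against 1.12% of all genes. Among 61 other lysosomal genes found in the table, 26.2% held CACGTG and 16.4% TCACGTGA. Capitals mark CACGTG, and all sequences run 5′ to 3′ on the gene's strand. The Ctsa window, chr2:164833755-164833784 on the plus strand, belongs to one of its 2 start sites in the table and holds the E-box on both sides of that site. The Ctsd window is chr7:142387902-142387931 on the minus strand, with the E-box 98 bases before the start, and another E-box lay 245 bases before it. The Ctsl window is chr13:64370733-64370762 on the minus strand, with the E-box 236 bases before the start. For Ctsz the 100 bases before the start are shown, chr2:174439040-174439139 on the minus strand, and its entry held no CACGTG.
Ctsa: aactgtCACGTGatgcagatgctCACGTGa
Ctsd: gcgtctCACGTGacccgttgagggccaaac
Ctsl: agaagcCACGTGctgatctaaattctatgg
Ctsz: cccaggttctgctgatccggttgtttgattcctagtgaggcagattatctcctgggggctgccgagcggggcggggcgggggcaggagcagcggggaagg
A match describes the letters of these windows and does not show that a factor binds there.

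Levels were FPKM, fragments per kilobase of transcript, scaled to the number of mapped fragments, as the authors deposited them. Genes with a mean of 1 FPKM or more over the 4 libraries, 10066 in all, are called expressed. Depth, estimated from the spacing of low values, was between 19200000 and 24500000 fragments, at which 3 fragments on a 2 kb transcript correspond to 0.0612 to 0.0781 FPKM. The lineages may have been normalised separately, since 6 genes had other listed coordinates in the B140 files and none differed within a lineage. The labelled myeloid type was checked on 11 marker genes. Their summed FPKM was 1953 in B117P and 698 in B117H, but 203 in B140P and 131 in B140H. Of these, Ms4a3, Mpo, Csf3r and Fcgr3 had the largest ratios within a lineage. Mpo, the peroxidase of myeloid granules, was at 1450, 473, 10.4 and 0.913 FPKM in B117P, B117H, B140P and B140H, and Ms4a3, a membrane protein of myeloid progenitors, at 218, 15.3, 0.115 and 0. Cd33, a sialic acid receptor chosen after its values were seen, was the other way round, at 8.58, 10.6, 120 and 54.8 FPKM, and made up most of the B140P sum. Ptprc, a marker of leukocytes in general and chosen in the same way, was at 74.5, 89.0, 53.6 and 50.1 FPKM. Cd33 and Ptprc together made up most of the sum in both B140 lines. Among B cell markers the expressed genes were Cd79a, Cd79b and Blnk. Cd79b, a B cell receptor chain, was at 44.5 and 64.2 FPKM in B140P and B140H and at most 1.67 in the B117 lines, and Cd79a, its partner chain, at 6.63 and 16.1 against at most 0.4. Blnk, a signalling adaptor, had its highest level in B117H, at 2.92 FPKM. Lists of T cell, erythroid, osteoclast and stromal markers each summed to at most 7.70 FPKM in any line. The highest of these sums, of stromal markers in B117H, was mostly Pdgfrb. That gene was at 1.55 FPKM in B117P and 7.54 in B117H, a log2 ratio of 1.74. The summed level of 12 macrophage markers was 46.2, 17.5, 2.42 and 2.92 FPKM in B117P, B117H, B140P and B140H, and C1qb, Marco and Vsig4 were listed at 0 in all 4. The part these differences play in the cathepsin levels was not tested.

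Of the 8 cathepsins, 6 were found in all 4 lines, between 9.54 and 177 FPKM, and 2, Ctsh and Ctsl, were found mainly in lineage B117. The median over the 8 was 33.4 FPKM in B117P, 29.4 in B117H, 40.4 in B140P and 36.9 in B140H, against medians of 12.5 to 13.9 over all expressed genes. All 8 passed the minimum, but Ctsh and Ctsl passed it through the B117 lines alone. For these 2, that step fixed the direction of the difference between lineages but not its size. Levels of different genes can be set side by side because FPKM is per length.

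**Figure D1:**
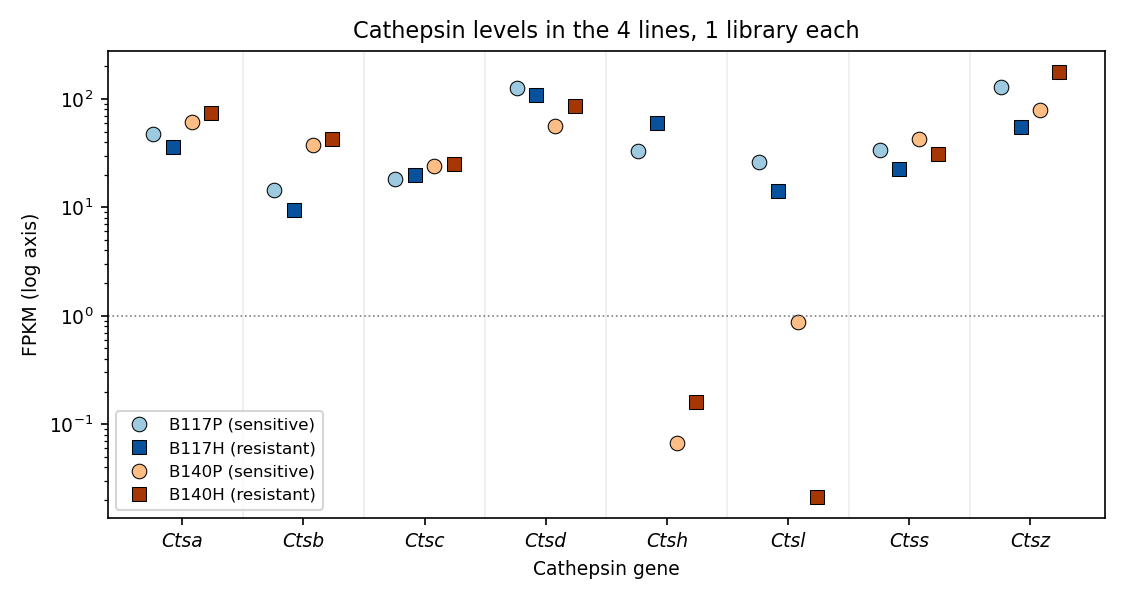
FPKM on a log axis for each of the 8 cathepsins in the 4 lines, 1 library each; circles are parental sensitive lines, squares resistant lines, and the dotted line marks 1 FPKM. Ctsh and Ctsl lie above 14 FPKM in both B117 lines and below 1 FPKM in both B140 lines, while the other 6 lie above 9 FPKM in all 4.

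Ctsd, the aspartic endopeptidase of bulk protein breakdown, was among the most abundant members, at 125 FPKM in B117P, 108 in B117H, 56.1 in B140P and 86.8 in B140H. It was higher in both B117 lines than in both B140 lines, at percentiles 94.2 and 93.8 of expressed genes against 86.8 and 89.9. Ctsa, which trims peptides and also stabilises a neuraminidase and a galactosidase in the lysosome, was at 47.3, 36.0, 61.5 and 74.5 FPKM in the same order. Here the order was the opposite one, with both B140 lines above both B117 lines.

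Ctsz, also named cathepsin X, removes single residues from the carboxyl end of peptides and is best known from monocytes, macrophages and dendritic cells. Its level was 128 FPKM in B117P and 54.6 in B117H, but 79.3 in B140P and 177 in B140H. It led the order of the 8 in B117P, B140P and B140H and came behind Ctsd and Ctsh in B117H. The 2 lineages overlapped, with the parents lying between the resistant lines.

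Ctsb, an endopeptidase that also removes dipeptides from the carboxyl end, was at 14.3 and 9.54 FPKM in B117P and B117H and at 37.9 and 42.5 FPKM in B140P and B140H. It was the lowest of the 8 in both B117 lines. Ctsc, the dipeptidyl peptidase that activates the serine proteases of granules, was the steadiest of the 8, at 18.1, 19.9, 23.8 and 25.1 FPKM in B117P, B117H, B140P and B140H. Ctss, an endopeptidase that stays active near neutral pH and cuts the invariant chain in antigen-presenting cells, was at 33.9, 22.8, 42.9 and 31.3 FPKM in that order. It was lower in each resistant line than in its parent.

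Ctsh, an aminopeptidase, was at 32.9 FPKM in B117P and 60.5 in B117H, the second highest of the 8 in that line. In B140P and B140H it was at 0.0677 and 0.16 FPKM, which corresponds to an estimated 2 and 6 fragments. Ctsl, the endopeptidase closely related to Ctss, was at 25.9 and 14.2 FPKM in B117P and B117H. Its level was 0.877 FPKM in B140P and 0.0215 in B140H, an estimated 33 fragments and 1 fragment. In bulk RNA, fewer cells of a type and less RNA per cell cannot be told apart, so these values do not say whether all or some of the cells carried the transcripts.

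Between B117H and B117P, 1 of the 8 cathepsins, Ctsz, fell past 2-fold, none rose and 7 did not pass. Ratios are given as log2 of FPKM + 1, and a gene is said to rise or fall when its ratio reaches 2-fold in these 2 libraries. Over all expressed genes 3.21% fell and 1.41% rose by this rule. Ctsz fell with a log2 ratio of -1.21, and its FPKM in B117H was 42.7% of that in B117P, with a 95% interval of 40.3% to 45.3%. This interval and those below are exact Clopper-Pearson intervals on fragments estimated from the depth and 1 transcript length per gene, and they cover counting error only.

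The direction of the other cathepsins in lineage B117 was mostly the same, short of 2-fold. Of the 8, 6 were lower in B117H and 2 higher, with a median log2 ratio of -0.46 against -0.03 over all expressed genes. Ctsl had a log2 ratio of -0.82, with 54.8% of the parental FPKM left (49.4% to 60.8%). Ctss and Ctsb were close to each other, at -0.55 and -0.54, with 67.2% and 66.6% left. Ctsa was at -0.38 and Ctsd at -0.20. Ctsh went the other way, to 184% of the parental level (171% to 198%), a log2 ratio of 0.86, and Ctsc stood at 0.13. The summed FPKM of the 8 went from 425 to 326. Of the 5 expressed macrophage markers, Cd14 fell from 37.8 to 11.5 FPKM and Trem2 from 3.90 to 0.203 in the same pair, Emr1 rose from 1.06 to 3.14, and Fcgr1 and Mrc1 did not pass. In lineage B140 only Trem2 of these 5 passed, rising from 0.106 to 1.22 FPKM, and 4 did not. Trem2 no longer passed there after centring or upper quartile scaling. Beside these counts, 3.21% of all expressed genes fell and 1.41% rose in lineage B117, and 1.63% fell and 2.31% rose in lineage B140. The part of such shifts in the cathepsin values was not tested.

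Between B140H and B140P, 1 of the 8, Ctsz again, passed 2-fold, this time upward, none fell and 7 did not pass. Over all expressed genes 2.31% rose and 1.63% fell, or 233 and 164 genes. With the ratios centred on their median these became 173 and 199, and with libraries scaled to a common upper quartile 159 and 202, because the median log2 ratio of expressed genes was 0.11 in this pair. Ctsz rose to 2.23-fold of the parental FPKM (2.13 to 2.34), a log2 ratio of 1.15. It was 1.04 after centring and 0.97, just short of the rule, after upper quartile scaling.

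Among the other 7 in lineage B140, Ctsd was higher, at a log2 ratio of 0.62 and 1.55-fold of the parental FPKM (1.47 to 1.63). Ctss was lower, at -0.44, with 73.0% left (66.9% to 79.4%). Ctsa, Ctsb and Ctsc were at 0.27, 0.16 and 0.08, beside a median of 0.11 over all expressed genes, and Ctsc and Ctsb went to -0.09 and -0.01 under upper quartile scaling. The median of the 8 was 0.14, and their summed FPKM went from 302 to 437. Ctsl had a log2 ratio of -0.88 on the FPKM + 1 scale, which understates changes of low values. By FPKM alone B140H had 2.45% of the parental level, with a wide interval of 0.0584% to 14.2% that reflects the single estimated fragment. With a pseudocount of 0.1 Ctsl passed the rule downward. For Ctsh the levels were too low for a comparison, the interval of the fold running from 0.420 to 23.8.

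**Figure D2:**
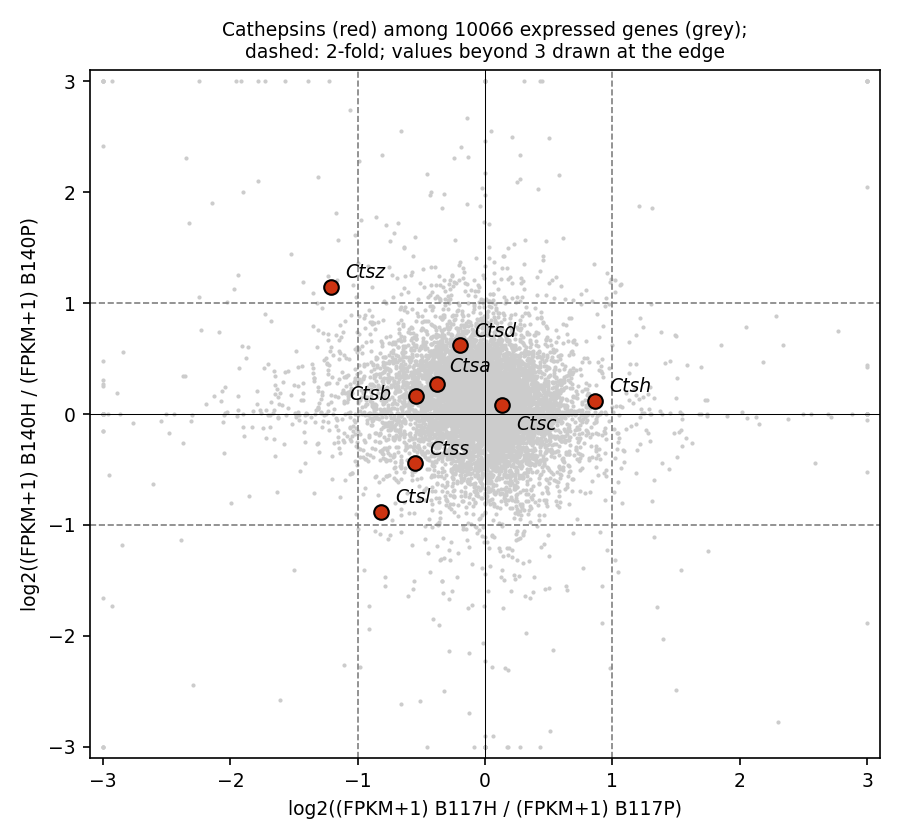
Log2 ratio of FPKM + 1 in B117H against B117P (horizontal) and in B140H against B140P (vertical) for 10066 expressed genes (grey) and the 8 cathepsins (red); dashed lines mark 2-fold and values beyond 3 are drawn at the edge. Ctsz lies past 2-fold in opposite directions, at -1.21 and 1.15, and the other 7 lie inside the 2-fold lines on both axes.

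Ctsz thus moved in opposite directions in the lineages, with log2 ratios that differed by 2.36. Of the expressed genes, 49, or 0.487%, passed 2-fold in both lineages in opposite directions, and 23, or 0.228%, in the same direction. No cathepsin was among the latter. Ctss was lower and Ctsc higher in both resistant lines, each short of 2-fold in each lineage. Ctsl was also lower in both, short of 2-fold on the FPKM + 1 scale but past it in lineage B140 with a pseudocount of 0.1, at -3.01. For Ctsc under both rescalings, the B140 direction was the other one.

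To ask whether any cathepsin changed with resistance in both lineages, limma was fitted to log2(FPKM + 1) of all expressed genes with the lineage as a block. It called 0 of the 8, and over all 10066 genes 0 (0%) at an adjusted p of 0.05. At an unadjusted p under 0.05 there were 218 genes, of which 1 was a cathepsin. That was Ctsl, whose mean log2 ratio was -0.85 (SE 0.25) and which was lower in 2 of 2 resistant lines, with a limma adjusted p of 1. Its closely matching ratios of -0.82 and -0.88 depend on the FPKM + 1 scale, since with a pseudocount of 0.1 they were -0.86 and -3.01, and Ctsl passed the expression minimum through the B117 lines alone. Ctss followed with -0.50 (SE 0.23), also lower in 2 of 2 and with a limma adjusted p of 1. Ctsz had a mean of -0.03 with the largest standard error of the 8, 0.54. The fit has 1 residual degree of freedom, so it leans on variance taken from other genes.

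Between the parental lines 4 of the 8 passed 2-fold. Against B117P, B140P had 1 of the 8 at least 2-fold higher, Ctsb, and 3 lower, Ctsd, Ctsh and Ctsl, where 5.83% of all expressed genes were higher and 10.8% lower. Ctsb was at 2.65-fold of the B117P level (2.49 to 2.81) and Ctsd at 45.0% (42.9% to 47.2%). Ctsl stood at 3.38% (2.30% to 4.75%) and Ctsh at 0.205% (0.0237% to 0.708%). For these 2 the filter fixed the direction of the difference but not its size. Without the filter 4 members also passed, 1 higher and 3 lower. Because the lineages may have been normalised separately, these folds carry that limit.

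Between the resistant lines, 3 cathepsins were at least 2-fold higher in B140H than in B117H, Ctsb, Ctsz and Ctsa, and 2 lower, Ctsh and Ctsl. The shares of all expressed genes were 9.69% higher and 9.19% lower, and with upper quartile scaling the number of genes went from 975 higher and 925 lower to 721 and 1088. Ctsb was at 4.45-fold (4.15 to 4.79) and Ctsz at 3.24-fold (3.06 to 3.42) of the B117H level. Ctsa, at a log2 ratio of 1.03, no longer passed after centring or upper quartile scaling. Ctsd, different between the parents, was at -0.31 here. These comparisons reuse the libraries of the within-lineage ones and add no independent evidence to them.

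Of 15 other cathepsin genes listed, 2 were expressed, 9 were listed at 0 in all 4 lines and none passed 2-fold in either lineage. The values named in this paragraph from genes that did not pass 2-fold were chosen after they were seen. Ctsg, the granule serine protease, was at 735, 402, 337 and 270 FPKM in B117P, B117H, B140P and B140H, above each of the 8 lysosomal cathepsins in every line. Ctso, a cysteine cathepsin of unclear substrate range, was between 1.67 and 3.30 FPKM. Ctsk, the collagen-degrading cathepsin of osteoclasts, did not exceed 0.149 FPKM.

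A list of 16 protease inhibitors held cystatins and serpins among others. In B117H 2 of the 6 that were expressed, both serpins, fell and the other 4 did not pass. Over all expressed genes 3.21% fell there. The 6 had a median log2 ratio of -0.78, and all 6 were below 0. The expressed cystatins, Cst3, Cst7 and Cstb, did not pass in either lineage. Serpinb1a, an inhibitor of neutrophil serine proteases and of some cathepsins, fell from 87.2 to 31.6 FPKM and Serpinb6a, an intracellular serpin, from 5.37 to 1.39 FPKM. In lineage B140 only Serpinb6b, a related serpin, fell, from 8.70 to 1.93 FPKM, and 5 did not pass. Over all expressed genes 1.63% fell in that lineage. The secreted inhibitor cystatin C, Cst3, had an FPKM of 278 in B117P, 191 in B117H, 399 in B140P and 751 in B140H, a level above that of each of the 8 cathepsins in every line. Its log2 ratios of -0.54 and 0.91 had the signs of those of Ctsz, and so had those of Cstb, the cytosolic cystatin B, at -0.64 and 0.70. Cst3 and Cstb were picked for this after seeing their values. Serpinb1a had these signs too, at -1.44 and 0.44, while Cst7, Serpinb6a and Serpinb6b were below 0 in both lineages. The medians over all expressed genes, -0.03 and 0.11, had the same signs, so this likeness to Ctsz is a description only.

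Genes that deliver and activate cathepsins were a list of their own. The shares of all expressed genes were 3.21% lower and 1.41% higher in lineage B117, and 1.63% lower and 2.31% higher in lineage B140. None of 15 expressed genes of mannose 6-phosphate tagging, sorting and activation passed 2-fold in either lineage, and their log2 ratios had medians of -0.13 for B117H and 0.21 for B140H. Scarb2, the sorting receptor of glucocerebrosidase, had 22.5 FPKM in B117P, 11.6 in B117H, 17.8 in B140P and 21.6 in B140H. Psap, the precursor of the saposins, had 139, 114, 128 and 248 FPKM in that order. Gga1, an adaptor that packs the receptors at the Golgi, had 21.4, 16.5, 15.9 and 21.9 FPKM. M6pr, a mannose 6-phosphate receptor, had 83.0, 81.0, 84.0 and 110 FPKM, the highest in B140H as for Psap. The list held 16 genes, and the 1 not expressed, Igf2r, was listed at 0 in all 4 lines. Such a 0 can be a failed estimate, so Igf2r could not be compared. Of the 3 partners of Ctsa in its lysosomal complex, Neu1, Glb1 and Galns, none passed in either lineage, with medians of -0.50 and 0.25.

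Further lists covered other lysosomal hydrolases and membrane genes. Over all expressed genes 3.21% fell and 1.41% rose in lineage B117, and 1.63% fell and 2.31% rose in lineage B140. Of 30 expressed hydrolases none passed in lineage B117 and 2 fell in lineage B140, with medians of -0.16 and 0.20. The falls were of Gaa, the acid glucosidase of glycogen breakdown, from 2.23 to 0.0333 FPKM, and of Hgsnat, an acetyltransferase of heparan sulfate breakdown, which was at 2.06 FPKM in B140P and listed at 0 in B140H, where a 0 can be a failed estimate. Hexa, a hexosaminidase subunit, had 54.2 FPKM in B117P and 27.7 in B117H but 74.7 and 74.5 in the B140 pair. Of 23 membrane genes 1 fell in B117H, Laptm4b, from 20.4 to 4.16 FPKM, and 1 rose in B140H, Cd68, the macrosialin of macrophage lysosomes, from 25.3 to 64.1 FPKM.

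None of the 17 expressed subunits of the proton pump that acidifies lysosomes passed 2-fold in either lineage. Of all expressed genes, 3.21% fell and 1.41% rose in lineage B117, and 1.63% fell and 2.31% rose in lineage B140. All 17 had ratios above 0 in lineage B140, with a median of 0.46 against 0.11 over all expressed genes, and 16 did so after centring and after upper quartile scaling. In lineage B117 the median was -0.09, with 5 above 0 and 12 below. Atp6v0c, the subunit that forms the rotating ring, had 291 FPKM in B117P, 192 in B117H, 118 in B140P and 201 in B140H. Atp6v0b, another subunit of the membrane sector, had 151, 94.8, 77.7 and 151 FPKM. Of a list of 13 relatives and regulators of TFEB, 10 genes were found for these lines. Tfeb itself was not among the 10. Mitf, a TFEB relative named after its values were seen, was below the expression minimum. Of the 8 that were expressed none passed in either lineage. Zkscan3, a repressor of lysosomal genes, had the largest ratio of these, -0.82 in lineage B117, at 9.60 and 4.99 FPKM.

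**Figure D3:**
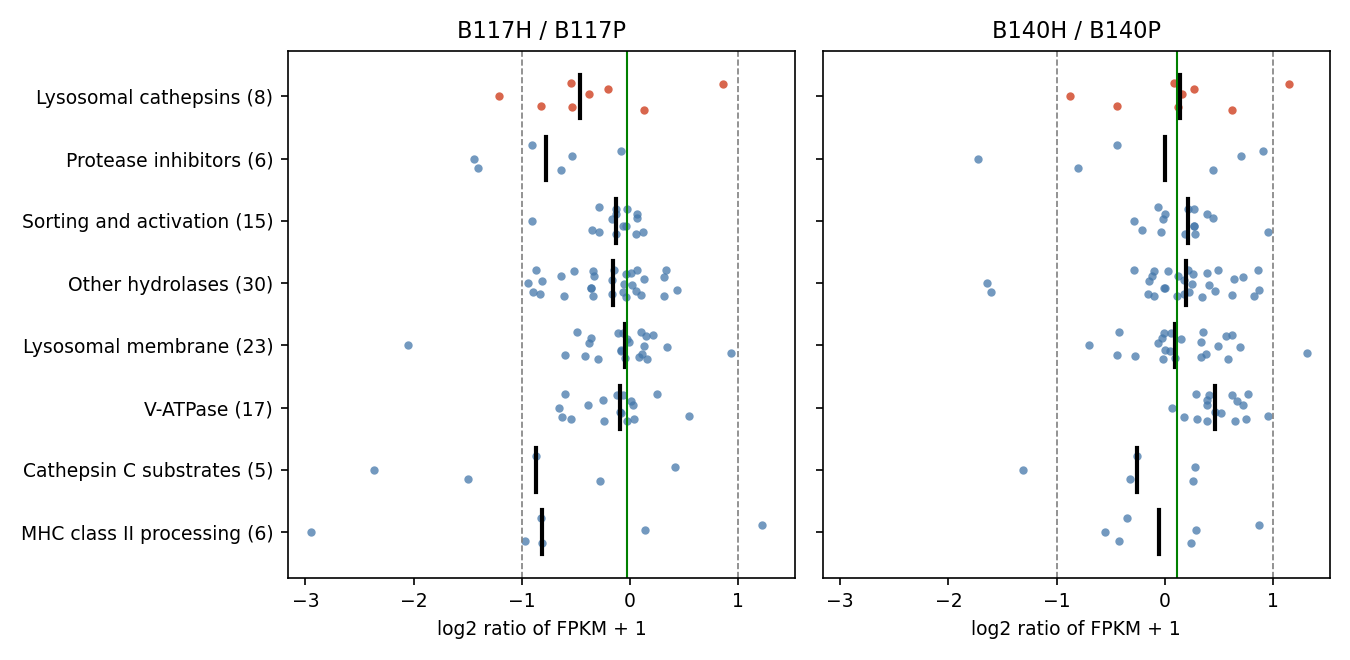
Log2 ratio of FPKM + 1 for the expressed members of 8 gene lists, one point per gene, in B117H against B117P (left) and B140H against B140P (right); black bars are list medians, the green line is the median of all expressed genes and dashed lines mark 2-fold. The cathepsins have medians of -0.46 and 0.14, and the proton pump subunits (V-ATPase) all lie to the right of 0 in B140H, or 16 of 17 after centring or upper quartile scaling.

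Granule proteases are the substrates that Ctsc activates. Of 5 expressed granule proteases 2 fell in B117H, Elane, neutrophil elastase, from 81.1 to 14.8 FPKM, and Prtn3, proteinase 3, from 488 to 172 FPKM, while Ctsc was at 18.1 and 19.9 FPKM. In B140H 1 fell, Mcpt8, a mast cell and basophil protease, from 15.5 to 5.65 FPKM. Of 11 genes of the MHC class II pathway, in which Ctss acts, 6 were expressed and 4 were under 1 FPKM in every line. Among the 6, Ifi30, a thiol reductase that opens disulfide bonds in the lysosome, fell from 11.1 to 0.569 FPKM in B117H, and H2-Ob, a chain that modulates peptide loading, rose from 6.13 to 15.6 FPKM. None passed in lineage B140. Beside the counts of both lists, 3.21% of all expressed genes fell and 1.41% rose in lineage B117. In lineage B140 these shares were 1.63% and 2.31%.

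The 8 genes lie on chromosomes 2, 3, 7, 9, 13 and 14 and were compared with their 10 nearest expressed genes on each side. In the mm9 build of the files, Ctsz is listed at chr2:174241305-174264493, Ctsl at chr13:64464522-64471614 and Ctsh at chr9:89949105-89970933. The 20 neighbours of Ctsz had median log2 ratios of -0.07 for B117H and 0.27 for B140H, and none of them passed 2-fold in either. The neighbours of Ctsa had medians of -0.13 and 0.29, against -0.38 and 0.27 for Ctsa itself. For Ctsl the neighbours' medians were 0.14 and -0.12, against -0.82 and -0.88 for Ctsl itself.

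Ctss, at chr3:95330708-95360325, had lower neighbours as well in lineage B140. Its 20 neighbours, within 0.771 Mb, had a median of -0.74 in lineage B140, below the -0.44 of Ctss, and 2 of them fell. In lineage B117 their median was -0.18 against -0.55 for Ctss. The neighbours of Ctsb, at chr14:63741302-63796630, had a median of -0.45 in lineage B140, with 3 falls, while Ctsb was at 0.16.

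**Figure D4:**
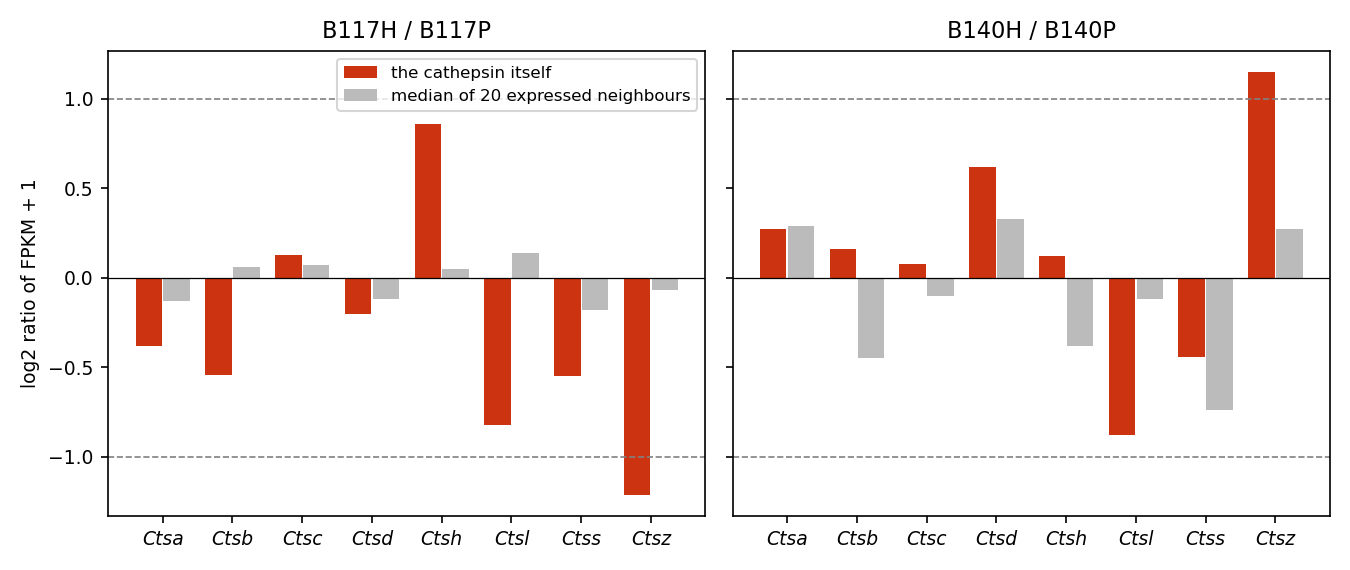
Log2 ratio of FPKM + 1 of each cathepsin (red bars) beside the median of its 20 nearest expressed genes (grey bars) in B117H against B117P (left) and B140H against B140P (right); dashed lines mark 2-fold. The bars of Ctsz reach -1.21 and 1.15 where the neighbours' medians are -0.07 and 0.27, and for Ctss in B140H the neighbours are at -0.74.

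The files list 3 members with spans shared by other genes, so reads in overlaps may be divided between them, and the sources used here do not say whether strand was used. Ctsz shares its span with Th1l, which had 32.5, 30.1, 29.1 and 39.8 FPKM in B117P, B117H, B140P and B140H and log2 ratios of -0.11 and 0.44. Ctsb shares one with Fdft1, the squalene synthase gene, at 20.7, 35.7, 22.2 and 19.7 FPKM, whose ratios of 0.76 and -0.17 had the opposite signs of those of Ctsb. Ctsa shares one with Neurl2, at most 6.70 FPKM, and Pltp, at most 0.406 FPKM. The other 5 share their listed spans with no gene.

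The genes most alike to a member over the 4 libraries were found by the distance between log2(FPKM + 1) profiles centred on their own means, among 5959 genes with a mean of 10 FPKM or more. With 4 libraries of 2 lineages such likeness is a description only. The profile nearest to that of Ctsz was Irf8, the interferon regulatory factor of monocyte and dendritic cell development, at 119, 57.2, 88.5 and 200 FPKM in B117P, B117H, B140P and B140H, a distance of 0.22. H2afj and Psmg4 followed at 0.31 and 0.39. Nearest to Ctsl was Clec11a, a secreted growth factor of haematopoietic cells, at 0.54, with Soat1, which esterifies cholesterol, at 0.54 and Cd14, the lipopolysaccharide co-receptor, at 0.63. Ctsh was nearest to Zyx, the focal adhesion protein zyxin, at 31.1, 46.4, 0.0219 and 0.0171 FPKM and a distance of 0.25. For Ctsa, Ctsd and Ctss the nearest genes, Hnrpdl, Zdhhc18 and Ampd2, lay within 0.11, and for Ctsb the nearest was 2010317E24Rik at 0.18.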

How the data were processed

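FPKM values of 21889 genes in 4 libraries, 1 per line, were used as the authors deposited them; reads were aligned to mm9, with TopHat2 2.0.4 and Cuffdiff named as tools, per the submitters' processing notes. Whether strand was used, and the gene annotation, are not given in the sources used here. No counts or p-values were used. The 8 cathepsins and all gene lists were chosen with earlier results of these data known. Listed starts were taken to count from 0, since 6285 spans then equal those of RefSeq against 434 otherwise, and 1 was added. Genes with a mean of 1 FPKM or more were compared by log2(FPKM + 1), with a 2-fold rule and no test within a lineage. limma 3.58.1 in R 4.3.3, with a mean-variance trend, the lineage as a block and Benjamini-Hochberg adjustment over all expressed genes, compared resistant with sensitive lines. The series' design text pairs each resistant line with its parent, and deviations of paired libraries from the means of their groups correlated at 0.57 across genes.

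Depth was set between 12000000 and 30000000 fragments as the value at which FPKM times length came nearest to whole fragments in 761 genes with a single GENCODE M21 transcript of 3 kb or more. Between 72.7% and 82.0% of 61 to 84 low values lay within 0.15 of a whole fragment, which is no independent check. Fragments of a member used its shortest principal transcript. All 8 members are named. Of the other cathepsins, inhibitors, Ctsa partners and Ctsc substrates, every expressed gene past 2-fold is named, and of each further list up to 4 genes with the largest ratios; the text marks genes picked on their values. Small RNA genes are never named. limma was tested on simulated data. Python 3.11.15 with pandas 2.3.3 was used. The nearest profile of Ctsc is not reported here.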

Additional observations from a re-analysis of the deposited data

Results flagged for a closer look

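Ctsz differed between the lineages: its log2 ratio was -1.21 in B117H against B117P and 1.15 in B140H against B140P, a difference of -2.36 with opposite signs. With 1 library per line this difference was not tested. Of 10066 expressed genes, 935, or 9.29%, had opposite signs and ratios at least 1 apart on the log2 scale.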

How the results depend on the processing

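With a pseudocount of 0.1, 2 cathepsins passed 2-fold in B140H against B140P, Ctsz upward and Ctsl downward. With a 1.5-fold rule 3 passed in each lineage. With upper quartile scaling 0 passed in lineage B140, since Ctsz went to 0.97, and the median of the 8 there was 0.05, or 0.03 after centring. Between the parents 4 or 5 passed, and between the resistant lines also 4 or 5, under all settings run. limma called 0 of the 8 with no replicate block, with no trend, with a pseudocount of 0.1, with either filter, with upper quartile scaling and without each library in turn, where the block was dropped and the lone library of a group is assumed to vary like the others. Over all genes it called 4 with a minimum mean of 5 FPKM and 6 without B140P. The count of genes past the rule, higher and lower, went from 142 and 323 to 225 and 482 in lineage B117 and from 233 and 164 to 330 and 317 in lineage B140 with a pseudocount of 0.1. With the 1.5-fold rule it was 469 and 922, and 845 and 471, and between the parents and between the resistant lines 1413 and 1934, and 2204 and 1511. With a minimum mean of 5 FPKM the 4 pairs of counts were 76 and 232, 175 and 85, 418 and 610, and 788 and 437. No ratio of a cathepsin that passed 2-fold changed sign. The absence of replicates limits every value. Counting error adds a further limit for Ctsh and Ctsl in lineage B140.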

Other observations

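The lineages also differed in other lysosomal genes, here chosen after their values were seen. Slc11a1, the metal ion transporter of phagosomes, was at 0.520 and 0.448 FPKM in B117P and B117H and at 107 and 158 FPKM in B140P and B140H. Lgmn, legumain, a protease that cuts cathepsin precursors and mature cathepsins, was at 48.0 and 50.2 FPKM in the B117 lines and at 3.04 and 2.93 in the B140 lines. Smpd1, the acid sphingomyelinase, was at 13.2 and 7.11 FPKM and at 0.309 and 1.04 FPKM, and Laptm4b had 0.0286 and 0.0224 FPKM in B140P and B140H. None of these differences between lineages was tested.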
